A study of Mus musculus with 8 samples.

Results

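Expression of 7 cadherin genes was examined in 4 mouse mammary tumour cell lines: the classical cadherins Cdh1, Cdh2, Cdh3 and Cdh4, the type II cadherins Cdh6 and Cdh11, and the atypical cadherin Cdh13. The genes were chosen by name, through their Entrez identifiers, among the 27179 genes of the count table. The lines were 4T1.2, 4T1, 66cl4 (spelled 66c14 in the sample labels) and 67NR, which are isogenic lines of BALB/c origin, and each was sequenced as 2 biological replicates, giving 8 libraries. The cells were cultured and untreated. The study used 4T1.2 as its model of metastasis to bone. Each condition is 1 line, so differences between lines cannot be told apart from differences between the particular cultures that were sequenced. Libraries were made with the TruSeq RNA v2 kit, and totals ran from 37159840 to 66269681 counts per library.

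Cadherins are transmembrane proteins that hold neighbouring cells together through calcium-dependent contacts, mostly between molecules of the same kind. Inside the cell, the classical and type II members bind p120-catenin and beta-catenin or plakoglobin, and alpha-catenin links that complex to actin. E-cadherin (Cdh1) is the main adhesion molecule of luminal mammary epithelium, P-cadherin (Cdh3) marks myoepithelial and basal cells, and N-cadherin (Cdh2) and Cdh11 are typical of mesenchymal cells. R-cadherin (Cdh4) and Cdh6 are best known from the nervous system and kidney. T-cadherin (Cdh13) differs from the others in having no transmembrane or cytoplasmic part, since it is held in the membrane by a lipid anchor and serves as a receptor for adiponectin and LDL.

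The lines were first checked against markers of mammary epithelium. Epcam, an epithelial surface protein, had 1586 counts in 4T1.2 and 4541 in 4T1, but 0 in 66cl4 and 1 in 67NR, over both libraries of each line. The summed level of 7 epithelial markers was 1827 to 2141 CPM (depth-scaled counts) in 4T1.2 and 2591 to 3396 in 4T1, against 719 to 722 in 66cl4 and 465 to 530 in 67NR, so Epcam was all but absent from 66cl4 and 67NR, although both are of mammary origin. Krt8 carried most of the sum in 67NR, at 495 CPM, where Krt18 and Krt7 were at 0.98 and 0.99 CPM. In 66cl4, Krt8 was at 604, Krt18 at 114 and Krt7 at 2.51 CPM. Markers of leucocytes were scarce, with Cd3e and Adgre1 at 0 counts in all libraries, Ptprc at no more than 3 counts in any line, and a summed level of 1.65 to 5.43 CPM that came mostly from Cd68.

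Of the 7 cadherins, 3 exceeded 14 counts in any library, and each of them did so in a single pair of lines. Cdh1 was found in 4T1.2 and 4T1, and Cdh2 and Cdh13 were found in 66cl4 and 67NR. The level of each gene was compared with that of the others as RPKM, which scales a count to the depth of the library and to the gene length deposited beside the counts. Cdh1 made up 99.0% ± 0.79 (SD, n = 2) of the summed RPKM of the 7 cadherins in 4T1.2 and 99.6% ± 0.061 in 4T1. Cdh2 was the most abundant of the 7 in the other lines, with 65.8% ± 1.9 in 66cl4 and 71.5% ± 0.72 in 67NR, and Cdh13 supplied nearly all of the rest, 33.96% ± 1.8 and 28.1% ± 0.67. The first-ranked cadherin of each line was the same in both libraries. It was also the same whether the deposited length, the longest GENCODE transcript or the coding length was used. The shares themselves moved with the length, since the deposited length of Cdh13 is 2290 bases and its longest GENCODE transcript 4565. With the longest transcript Cdh13 held 21.2% in 66cl4 and 17.0% in 67NR, and with coding length 24.3% and 19.6%.

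**Figure D1:**
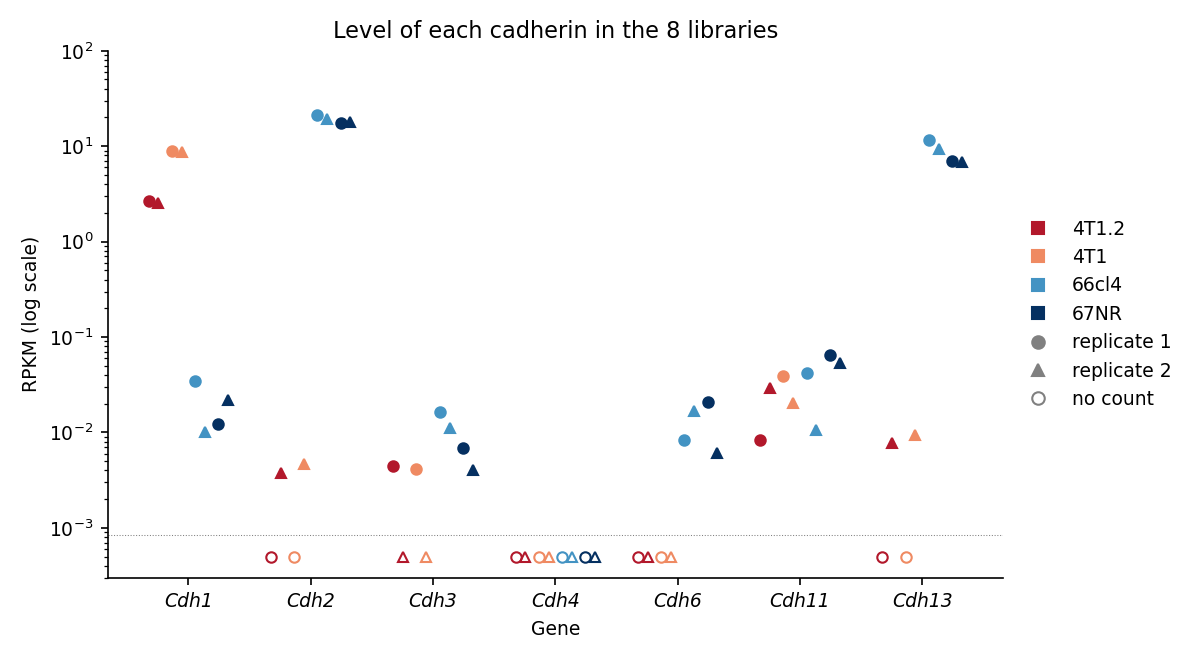
Level of each of the 7 cadherins in each of the 8 libraries, as RPKM. Cdh1 lies above 2 RPKM in the 4 libraries of 4T1.2 and 4T1 and below 0.04 in the others, and Cdh2 and Cdh13 show the opposite arrangement.

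**Figure D2:**
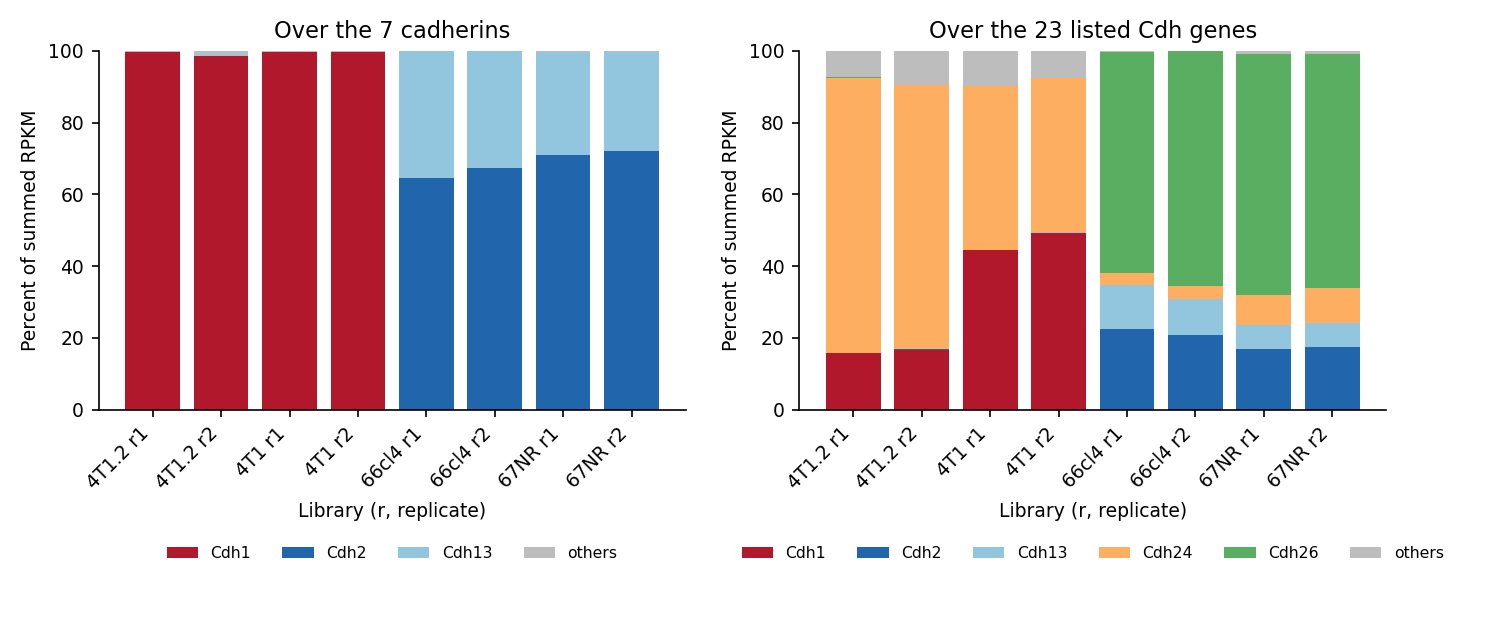
Share of each gene in the summed RPKM, in percent, by library, over the 7 cadherins (left) and over 23 Cdh genes (right). On the left, Cdh1 fills 98.4 to 99.6% of the libraries of 4T1.2 and 4T1. Cdh2 and Cdh13 together fill nearly all of those of 66cl4 and 67NR. On the right, Cdh24 holds the largest share in 4T1.2, and Cdh26 in 66cl4 and 67NR. Cdh1 and Cdh24 hold similar shares in 4T1.

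Cdh1, which encodes E-cadherin, is a gene on the forward strand of chromosome 8 (GRCm38, 106603350 to 106670247) with 16 exons. It had 661 and 629 counts in 4T1.2, 2375 and 1765 in 4T1, with only 7 and 2 in 66cl4 and with 2 and 6 in 67NR. No library of 66cl4 or 67NR came near any library of the other pair. On the RPKM scale the level was 2.57 ± 0.087 in 4T1.2 and 8.71 ± 0.13 in 4T1 (SD, n = 2), which placed Cdh1 above 30.1% and 49.1% of the tested genes in those lines, so it was not an abundant transcript in either.

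The question addressed by the main comparison is which genes distinguish 4T1 and 4T1.2 from 66cl4 and 67NR, and the average of 4T1 and 4T1.2 was set against the average of the other lines for it. Cdh1 was higher in 4T1/4T1.2 by 7.82 ± 0.18 (SE) on the log2 scale (edgeR quasi-likelihood test, adjusted p = 1.52e-10). In summed counts scaled to depth the ratio was 273-fold (exact 95% interval 170 to 468, 5430 against 17 counts). The change of Cdh1 was larger than that of 96.1% of the tested genes. In bulk RNA, fewer cells that express a gene and less RNA per cell cannot be told apart, and this holds for all levels given here.

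Between the closely related 4T1.2 and 4T1, Cdh1 was lower in 4T1.2. Its log2 difference was -1.76 ± 0.14 (edgeR, adjusted p = 4.39e-05), a ratio of 3.39-fold (3.18 to 3.61), and the libraries of the 2 lines did not overlap. It was the only one of the 4 tested cadherins called in that comparison, in which 19.3% of all tested genes were called in either direction, 9.37% higher and 9.92% lower in 4T1.2. The change of Cdh1 was larger than that of 95.5% of the tested genes. Leaving out any single library gave values from -1.79 to -1.73, all past the threshold.

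Epithelial markers moved in the same direction as Cdh1 between these lines, and their part in the difference was not tested. Of the 6 tested epithelial markers, 4 were lower in 4T1.2, beside 9.92% of all tested genes, and the other 2 were not called. Epcam differed by -1.61 (adjusted p = 0.00016), Krt19 by -1.92 (adjusted p = 0.019), Krt18 by -0.81 (adjusted p = 0.0065) and Krt8 by -0.52 (adjusted p = 0.025), in the same edgeR fit. Among known repressors of Cdh1, 3 of 9 were higher in 4T1.2, beside 9.37% of all tested genes, and the other 6 were not called. The 3 were Snai1, by 0.54 (adjusted p = 0.0479), Zeb2, by 0.47 (adjusted p = 0.0142), and Tcf3, by 0.30 (adjusted p = 0.044).

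Cdh2, which encodes N-cadherin, lies on the reverse strand of chromosome 18 (16588877 to 16809246). It had 4502 and 3980 counts in 66cl4 and 2975 and 5099 in 67NR. In 4T1.2 and in 4T1 it had 0 counts in replicate 1 and 1 count in replicate 2. The libraries of 67NR had totals of 37159840 and 62776834 counts. Scaled to depth and length, as RPKM, Cdh2 was at 21.4 and 19.1 in 66cl4 and at 17.5 and 17.8 in 67NR. Cdh2 was thus above 68.5% of the tested genes in 66cl4 and above 65.1% in 67NR.

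The log2 difference of Cdh2 between the pairs, 4T1/4T1.2 minus 66cl4/67NR, was -12.90 ± 0.20 (edgeR, adjusted p = 1.77e-11), and only 13 of the 13926 tested genes had a larger fitted difference. With 2 counts against 16556, the ratio was 9702-fold, with a counting interval from 2685 to 80121, and the fitted value depends on the prior count. Over the alternatives it ran from -14.04, without 4T1 replicate 2, to -10.83, with a prior count of 2. It was also -13.98 without 4T1.2 replicate 2. Between 66cl4 and 67NR the difference of Cdh2 was 0.20 ± 0.12 (adjusted p = 0.197). Both libraries of 66cl4 lay above both of 67NR, but the difference did not pass the test.

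Cdh13, which encodes T-cadherin, spans 1184913 bases of chromosome 8 (118140017 to 119324929, forward strand). Its counts were 1214 and 954 in 66cl4, 590 and 964 in 67NR, and 0 and 1 in both 4T1.2 and 4T1. Per length and depth, Cdh13 was at 11.7 and 9.29 RPKM in 66cl4 and at 7.02 and 6.82 RPKM in 67NR, so it was seen in the same lines as Cdh2. Its log2 difference between the pairs was -10.73 ± 0.27 (edgeR, adjusted p = 2.62e-10), and the ratio of counts was 2181-fold (603 to 18017). The fitted value ran from -11.87, without 4T1 replicate 2, to -8.67, with a prior count of 2, and was -11.82 without 4T1.2 replicate 2.

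Unlike Cdh2, Cdh13 passed the test between 66cl4 and 67NR, where it was higher in 66cl4 by 0.60 ± 0.16 (edgeR, adjusted p = 0.0128), or 1.52-fold (1.43 to 1.63). It was the only one of the 4 tested cadherins called in that comparison, in which 44.6% of all tested genes were called, 22.2% higher and 22.4% lower in 66cl4. The call for Cdh13 was lost without 66cl4 replicate 1 (0.43, adjusted p = 0.101), without 67NR replicate 1 (0.62, adjusted p = 0.0677) and without 67NR replicate 2 (0.58, adjusted p = 0.0908), while the direction was kept. The ratio of Cdh2 to Cdh13 in RPKM was 1.83 and 2.06 in 66cl4 and 2.49 and 2.61 in 67NR, so its ranges in the 2 lines did not overlap, and that difference was not tested. With the longest transcript as the length the ratios were 3.50 and 3.93 for 66cl4 and 4.75 and 4.99 for 67NR.

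The remaining 4 cadherins stood at or near the limit of detection. Cdh11, a type II cadherin of mesenchymal and bone-forming cells (chromosome 8, 102632095 to 102785493, reverse strand), had 2 and 7 counts in 4T1.2, 10 and 4 in 4T1, with 8 and 2 in 66cl4 and with 10 and 14 in 67NR. It was tested but not called between the pairs, at -0.69 ± 0.51 (edgeR, adjusted p = 0.235, 23 against 34 counts), and the groups overlapped. In 67NR both libraries were above both of 4T1.2, and the difference of Cdh11 there was -1.60 (adjusted p = 0.0556). Over 18 alternatives of that comparison the adjusted p ran from 0.0289 to 0.261, and in 6 of them it passed the threshold. Among these were the fits without 4T1.2 replicate 2 (-2.73, adjusted p = 0.0339), without 66cl4 replicate 1 (-1.60, adjusted p = 0.0429) and without 66cl4 replicate 2 (-1.60, adjusted p = 0.0426).

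Cdh3, the gene of P-cadherin, had 1 and 0 counts in both 4T1.2 and 4T1, with 3 and 2 in 66cl4 and with 1 and 1 in 67NR. Cdh6 was at 0 in all 4 libraries of 4T1.2 and 4T1 and had 1 or 2 counts per library in 66cl4 and 67NR. Cdh4 was at 0 counts in all 8 libraries. These 3 genes did not pass the filter on low counts and were not tested. A count of 0 allows up to 3 counts, which is 0.0486 to 0.0818 CPM at the depth of these libraries.

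Cdh3 lies next to Cdh1 (chromosome 8, 106510852 to 106556911, forward strand), with 46.4 kb between them, and the neighbours had very different levels in the lines that express Cdh1. In 4T1 the count of Cdh1 reached 2375 in a library in which Cdh3 had 1. In 4T1.2 replicate 1 the counts were 661 and 1.

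Counted over the whole set, 3 of the 4 tested cadherins, of 7 in all, were called between 4T1/4T1.2 and 66cl4/67NR. Across all tested genes 76.8% were called, with 38.1% higher and 38.6% lower in 4T1/4T1.2, so the number of cadherins called was near that background. Likewise, the same 3 cadherins had 4 libraries on one side that did not overlap the other 4, as did 55.5% of the tested genes. The sizes of their differences are given for each gene above, as a description of 3 genes picked here because they were called. Cdh2 and Cdh13 had 0 or 1 count per library in 4T1.2 and 4T1 and passed the filter through 66cl4 and 67NR. The sizes of their differences, and so their ranks among all genes, depend on the prior count.

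Each single line gave the same picture, although these comparisons share libraries with each other. Set against 66cl4 and then 67NR, Cdh1 was higher in 4T1.2 by 6.80 and 7.09 on the log2 scale, and in 4T1 by 8.56 and 8.85. In the same order, the log2 differences of Cdh2 were -13.03 and -12.83 for 4T1.2, and -12.97 and -12.77 for 4T1. The values of Cdh13 were -11.06 and -10.46 for 4T1.2, and -11.00 and -10.40 for 4T1. All of these passed the test, which made 3 of 4 tested cadherins in each comparison, 1 higher and 2 lower. Across all genes, 68.8% were called in 4T1.2 against 66cl4 (34.3% higher, 34.5% lower), 67.9% in 4T1.2 against 67NR (33.7% and 34.1%), 70.0% in 4T1 against 66cl4 (34.9% and 35.2%) and 68.2% in 4T1 against 67NR (33.9% and 34.4%).

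**Figure D3:**
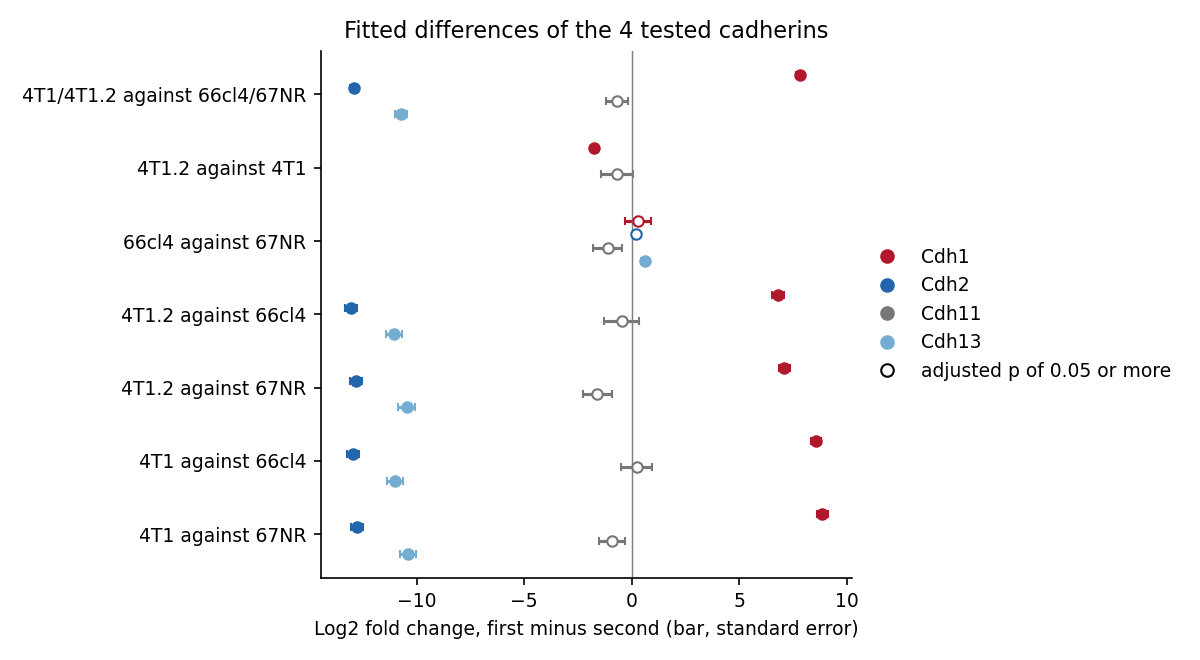
Log2 fold change with its standard error of the 4 tested cadherins in each comparison, first line or pair minus second. Cdh2 and Cdh13, with 1 count in each line, are not drawn for 4T1.2 against 4T1. Cdh1 lies to the positive side and Cdh2 and Cdh13 to the negative side wherever 4T1.2 or 4T1 is set against 66cl4 or 67NR, with Cdh11 at values between -1.60 and 0.22.

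The picture of which cadherin dominates a line changed when 16 other Cdh genes were added to the 7. Cdh24, a type II cadherin that was singled out after its level was seen, was at 11.9 ± 1.1 RPKM in 4T1.2 and 8.29 ± 1.1 in 4T1, and at 3.36 ± 0.056 in 66cl4 and 9.28 ± 0.90 in 67NR. Cdh26, a cadherin described in epithelia, was at 59.8 ± 1.1 RPKM in 66cl4 and 68.0 ± 2.3 in 67NR, but at 0.021 and 0.013 RPKM in 4T1.2 and 4T1. Cdh26 was therefore seen in the same lines as Cdh2 and at a higher RPKM.

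Of the summed RPKM of all 23 Cdh genes, Cdh24 held 75.2% ± 2.0 in 4T1.2 and Cdh1 16.3% ± 0.59. In 4T1 Cdh1 held 46.9% ± 3.4 and Cdh24 44.3% ± 1.8, and their ranges over the 2 libraries overlapped, so no order between them was resolved. Cdh26 held 63.6% ± 2.8 in 66cl4 and 66.2% ± 1.4 in 67NR, where Cdh2 held 21.5% ± 1.2 and 17.1% ± 0.43. The 7 cadherins together made up between 15.9 and 17.0% of the sum in 4T1.2 and 44.7 and 49.5% in 4T1, and between 30.7 and 34.7% in 66cl4 and 23.7 and 24.2% in 67NR.

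Between the pairs, 6 of the 16 other Cdh genes were tested, with 5 higher and 1 lower in 4T1/4T1.2. Of all tested genes, 38.1% were higher and 38.6% lower. The median log2 difference of these Cdh genes was 2.06 beside -0.01 over all tested genes. It was larger against 66cl4 alone, at 2.75 in 4T1.2 and 2.79 in 4T1, than against 67NR alone, at 1.02 and 1.01. Cdh26 was lower by -11.84 (edgeR, adjusted p = 4.23e-11, 11 against 34832 counts), a ratio of 3711-fold (2074 to 7435) that lies inside the interval of Cdh13, so their order was not resolved. Cdh15 (4.23, adjusted p = 6.88e-05), Cdh5 (3.60, adjusted p = 6.3e-06) and Cdh23 (2.09, adjusted p = 6.54e-06) were higher. Cdh17 (2.04, adjusted p = 8.33e-06) and Cdh24 (0.83, adjusted p = 1.76e-05) were also called, but both were low in 66cl4 rather than in both lines. Against 67NR alone, Cdh24 differed by 0.36 in 4T1.2 (adjusted p = 0.0291) and by -0.16 in 4T1 (adjusted p = 0.273), and Cdh17 by 0.33 (adjusted p = 0.188) and -0.21 (adjusted p = 0.404).

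The level of Cdh5, the VE-cadherin of endothelium, was low, at 0.66 RPKM in 4T1 and 0.17 in 4T1.2. Of the 5 endothelial markers, which include Cdh5, 3 stayed at or under 3 counts throughout 4T1.2 and 4T1, with Emcn at 0 and Kdr at 2 counts in all. Their summed level was 0.83 to 1.00 CPM in 4T1.2 and 2.20 to 3.70 in 4T1. It was 0.33 to 0.44 CPM in 66cl4 and 0.37 to 0.38 in 67NR. Cdh5 itself was most of the sum in 4T1.2 and 4T1, at 0.66 and 2.64 CPM. Pecam1 was at 0.24, 0.27, 0.16 and 0.092 CPM in 4T1.2, 4T1, 66cl4 and 67NR. The part of endothelial cells in the value of Cdh5 was not tested.

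Within 66cl4 and 67NR the Cdh genes did not move together. Cdh17 had the largest difference among the tested Cdh genes, at -3.96 in 66cl4 minus 67NR (edgeR, adjusted p = 1.37e-05, 15 against 259 counts). Cdh24 was lower in 66cl4 by -1.47 (adjusted p = 2.17e-05), while Cdh13 was higher there and neither Cdh2 nor Cdh26 (-0.18, adjusted p = 0.36) passed the test. Between 4T1.2 and 4T1, Cdh24 was higher in 4T1.2 by 0.52 (adjusted p = 0.0181), the opposite direction to Cdh1. Cdh5 (-2.01, adjusted p = 0.00172) and Cdh15 (-1.49, adjusted p = 0.0303) were lower in 4T1.2, as Cdh1 was.

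The large cadherins of the Fat, Dachsous and Celsr groups, which act in planar polarity and growth control, were measured beside the 7. In 4T1/4T1.2, 1 of the 7 tested genes was higher and 3 fell below the other lines, beside 38.1% and 38.6% of all tested genes. Fat4 was at 0 counts in all 4 libraries of 4T1.2 and 4T1 and had 1929 counts in the other lines, which made it at least 754-fold lower, taking 3 counts over the group as the floor. Dchs1, whose protein binds Fat4, was lower by -6.19 (edgeR, adjusted p = 3.87e-08), Fat1 was lower by -1.15 (adjusted p = 0.000151; -0.27, adjusted p = 0.33, in 4T1 against 67NR), and Celsr2 was higher by 2.04 (adjusted p = 1.66e-05). Fat4 and Dchs1 were thus found in the lines that held Cdh2 and Cdh13.

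The cytoplasmic partners of the cadherins mostly differed far less than the cadherins. Of 10 tested catenins and linkers, 3 were called as higher in 4T1/4T1.2 and 2 as lower, with a median log2 difference of 0.05. Over all tested genes, 38.1% were called as higher and 38.6% as lower. Jup, the gene of plakoglobin, which joins both adherens junctions and desmosomes, was the exception, with 20.4 and 22.7 RPKM in 4T1.2 and 4T1 and 0.080 and 0.069 in 66cl4 and 67NR, a difference of 8.21 (edgeR, adjusted p = 2.93e-11). It stood in the same lines as Cdh1. Ctnnb1 (beta-catenin) was at 322, 364, 219 and 223 RPKM in 4T1.2, 4T1, 66cl4 and 67NR, a difference of 0.63 (adjusted p = 1.23e-05). Ctnna1 (alpha-catenin, -0.10, adjusted p = 0.169) and Ctnnd1 (p120-catenin, -0.05, adjusted p = 0.535) were not called between the pairs. Both were higher in 66cl4 than in 67NR, by 0.42 (adjusted p = 0.00368) and 0.76 (adjusted p = 0.000199). Against 66cl4 alone, Ctnna1 was lower in 4T1.2 (-0.26, adjusted p = 0.0218) and 4T1 (-0.35, adjusted p = 0.00498). So was Ctnnd1, by -0.32 (adjusted p = 0.0137) and -0.53 (adjusted p = 0.000774). Against 67NR alone, only Ctnnd1 in 4T1.2 was called among these (0.44, adjusted p = 0.00278). The other members called between the pairs were Plekha7 (1.65), Afdn (-0.66) and Vcl (-0.34). The value of Vcl came from 66cl4, with 768 CPM beside 442 in 4T1.2, 369 in 4T1 and 341 in 67NR, and against 67NR alone Vcl was higher in 4T1.2 by 0.37 (adjusted p = 0.00412).

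Genes that act on cadherin protein, by shedding, endocytosis or ubiquitination, were all tested. Of these 10, 4 were higher and 3 lower, with a median of 0.15, beside 38.1% and 38.6% of all tested genes. The called changes of largest size were Mdm2 (-1.17), Adam17 (0.82), Adam15 (-0.78) and Numb (0.34), all small beside the differences of Cdh1, Cdh2 and Cdh13. Adam15 was not called against 66cl4 alone, nor Numb in 4T1.2 against either line.

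**Figure D4:**
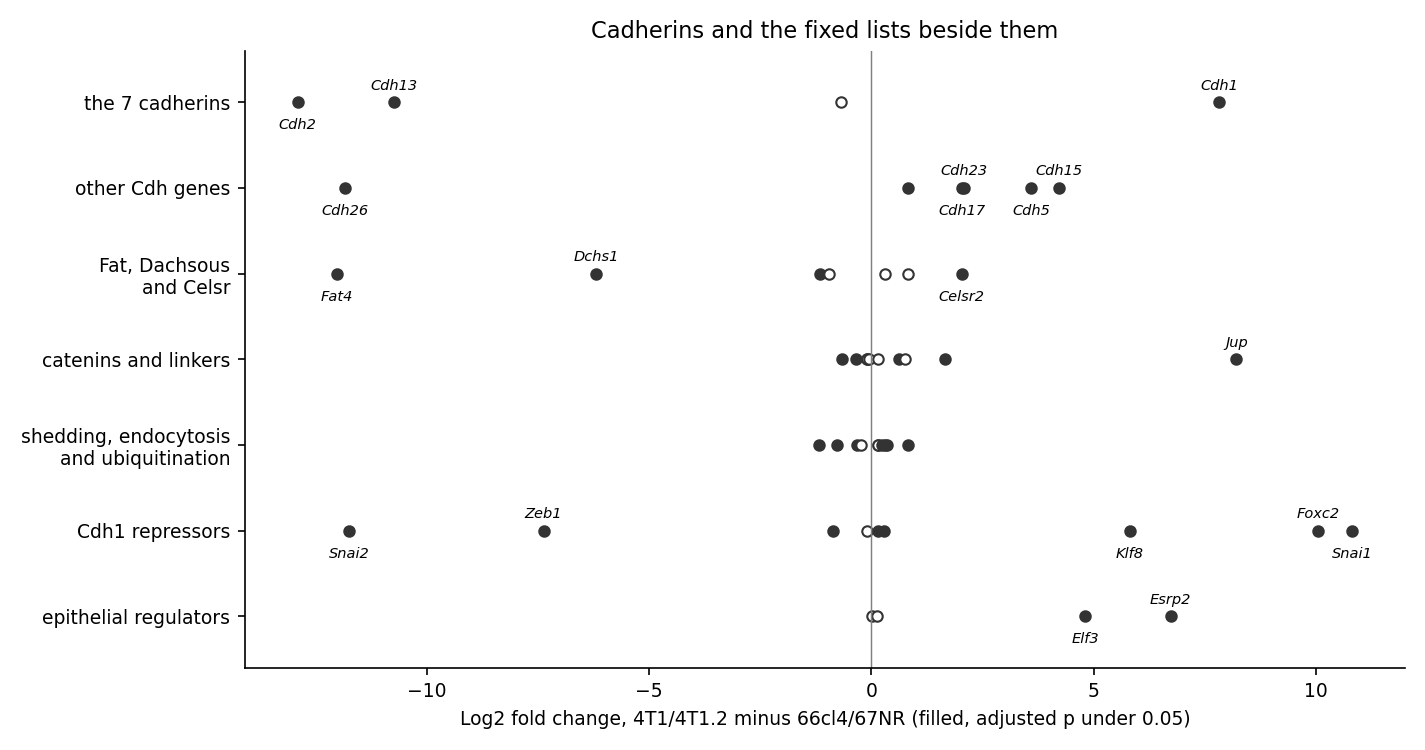
Log2 fold change between 4T1/4T1.2 and 66cl4/67NR of the tested genes of each list, with called and other genes marked. The cadherins, the other Cdh genes and the repressors of Cdh1 spread widely to both sides, while catenins and linkers, apart from Jup, lie in a narrower range, with Plekha7 at 1.65.

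Repressors of Cdh1, zinc-finger and helix-loop-helix factors that bind E-boxes and others known to lower E-cadherin, went in both directions. In 4T1/4T1.2, 5 of the 9 tested repressors were higher and 3 lower, beside 38.1% and 38.6% of all tested genes. The 5 include Tcf4 (0.15, edgeR, adjusted p = 0.0451) and Tcf3 (0.29, adjusted p = 0.00192). Against 66cl4 alone, Tcf4 was lower in 4T1.2 (-0.23, adjusted p = 0.0334) and in 4T1 (-0.42, adjusted p = 0.00152). Tcf3 was not called in 4T1 against 66cl4 (adjusted p = 0.156) or 67NR (adjusted p = 0.21). Snai2 had 1 and 1 counts in 4T1.2, 0 and 3 in 4T1, with 4222 and 4808 in 66cl4 and with 2689 and 4216 in 67NR, a difference of -11.74 (edgeR, adjusted p = 3.77e-11). Its relative Snai1 had 1250 and 1045 counts in 4T1.2, 957 and 562 in 4T1, with 2 and 1 in 66cl4 and with 0 and 0 in 67NR, a difference of 10.81 (adjusted p = 1.99e-09). The 2 Snail genes thus stood in opposite pairs of lines, Snai1 with Cdh1 and Snai2 with Cdh2.

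Zeb1 had 15 and 21 counts in 4T1.2, 28 and 21 in 4T1, with 2946 and 2688 in 66cl4 and with 2311 and 4026 in 67NR, lower in 4T1/4T1.2 by -7.37 (edgeR, adjusted p = 1.5e-11). Foxc2 was higher in 4T1/4T1.2 by 10.05 (adjusted p = 3.1e-09), with 3 counts in 66cl4 and 0 in 67NR. Twist1 was lower by -0.86, and Zeb2 was not called (-0.11, adjusted p = 0.225). Of 9 regulators of the epithelial state, 4 were tested, of which Esrp2 (6.73, adjusted p = 6.78e-09) and Elf3 (4.81, adjusted p = 6.9e-10) were higher. Grhl2, an activator of Cdh1, was not called between the pairs (0.12, adjusted p = 0.725), but it was lower in 66cl4 than in 67NR (-2.84, adjusted p = 0.000681). Against 67NR alone, Grhl2 was lower in 4T1.2 (-1.67, adjusted p = 0.00226) and in 4T1 (-0.92, adjusted p = 0.0317). Against 66cl4 alone, it was higher in 4T1 (1.92, adjusted p = 0.00579) and not called in 4T1.2 (1.17, adjusted p = 0.077). Its counts were 2 to 40 per library.

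Markers of mesenchymal cells moved with Cdh2 and Cdh13 in part. Of 8 such markers, 6 were lower in 4T1/4T1.2, among them Pdgfrb (-6.87), Col1a2 (-5.34) and Acta2 (-3.81), with Col3a1 at least 76.6-fold lower. In 66cl4 and 67NR, Pdgfrb was at 346 and 176 CPM, but other levels were low there too. Acta2 was at 3.40 and 0.84 CPM, Col1a2 at 0.39 and 1.00, and Col3a1 at 0.70 and 1.38. Over all tested genes, 38.6% were called lower and 38.1% higher. Vim (1.16) and Pdgfra (0.34) were higher, although Pdgfra was at -0.23 in 4T1 against 66cl4 (adjusted p = 0.0913). The summed level of the 8, of which Vim was the most abundant, was 5485 to 6602 CPM in 4T1.2 and 5541 to 7462 in 4T1, against 4652 to 5571 in 66cl4 and 3164 to 3222 in 67NR, with Col3a1 at 0 counts in 4T1.2 and 4T1. All 6 tested epithelial markers were higher in 4T1/4T1.2, led by Epcam (12.10) and Krt7 (8.12). The part of either marker list in the cadherin values was not tested.

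Of the 7 cadherin genes, 4 lie on chromosome 8, and the genes around them were examined for shifts of a whole region. Over all tested genes, 38.1% were called higher in 4T1/4T1.2 and 38.6% lower. Within 1 Mb of Cdh1, 45 genes were tested, with 13 called higher and 19 called lower and a median of -0.10. The nearest tested genes, Zfp90 (176 kb before) and Tango6 (12.8 kb after), differed by -0.49 (edgeR, adjusted p = 0.000224) and -1.37 (adjusted p = 3.92e-07), the opposite direction to Cdh1. The largest value in the window after Cdh1 itself was that of Esrp2, a splicing regulator of epithelial cells, at 6.73.

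Around Cdh13, 23 genes were tested within 1 Mb, with 6 higher and 12 lower, beside 38.1% and 38.6% of all tested genes. Their median was -0.55, against -0.27 over the 750 tested genes of chromosome 8. The nearest neighbours of Cdh13, Mphosph6 and Hsbp1, differed by -0.78 (edgeR, adjusted p = 7.95e-06) and -0.18 (adjusted p = 0.177), beside -10.73 for Cdh13. Farther off, values in the window ran from -4.94 (Kcng4) to 2.40 (Crispld2). In 66cl4 against 67NR, where Cdh13 was higher, 2 of the 23 neighbours were higher and 13 lower, with a median of -0.62 beside -0.30 over the chromosome. The values of these neighbours ran from -9.88 to 2.79. Of all tested genes, 22.2% were higher and 22.4% lower in that comparison. Cdh2 had no tested gene within 1 Mb, and the nearest on each side, Kctd1 and Trappc8, differed by 0.75 (adjusted p = 8.22e-06) and -0.21 (adjusted p = 0.018). No exon of the 7 cadherins overlaps an exon of another gene on either strand.

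**Figure D5:**
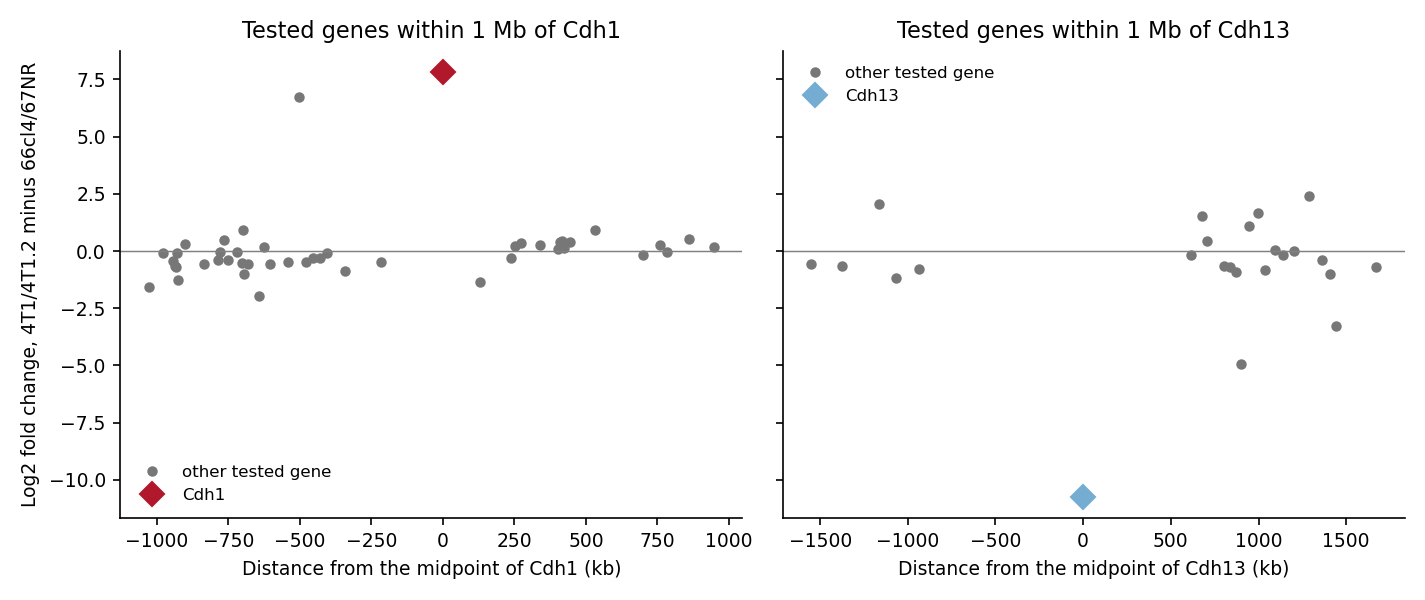
Log2 fold change between 4T1/4T1.2 and 66cl4/67NR of tested genes by distance from a cadherin, in kb. The neighbours of Cdh1 lie between -1.95 and 6.73 with a median near 0. Those of Cdh13 lie between -4.94 and 2.40 with a median of -0.55, while the cadherins themselves lie at 7.82 and -10.73.

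Genes with a profile most like each cadherin were found by the root mean square distance of centred log2 CPM over the 8 libraries, as a description without a test. Nearest to Cdh1 were Abcc3, Lad1 and Klk8, at distances of 0.36, 0.37 and 0.37, beside a spread of 3.79 for Cdh1 itself. Nearest to Cdh2 were Fgf10 (0.21), Snai2 (0.34) and Armcx2 (0.35), beside a spread of 5.42. Cask (0.22), Foxf2 (0.24) and Fam20c (0.27) were nearest to Cdh13, whose spread was 4.35. For Cdh11 the nearest were Zfp72, Zfp979 and Zfp958, at 0.29 to 0.35, beside a spread of 0.71. These distances are large beside that spread. With 2 to 14 counts per library, the profile of Cdh11 carries much counting error.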

How the data were processed

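RNA-seq libraries of 4 cultured tumour lines, each with 2 biological replicates, were used. The authors aligned reads to mm10 with Rsubread and assigned them to Entrez genes with featureCounts, and the deposited tables give these read counts unnormalised. The strand setting is not given in the sources used here. The single-library files hold the same counts as the table of all libraries, and 0 value columns lacked a sample. Replicates differed by more than sampling noise (chi-square per degree of freedom of their counts, 9.62 to 70.6).

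From the counts, 25275 of 27179 identifiers were matched to a RefSeq gene table of GRCm38. After filterByExpr with default settings (15269 genes), genes that were unmatched, predicted or ribosomal were taken out, leaving 13926. All 8 libraries were fitted with a mean for each line with the quasi-likelihood F-test of edgeR 4.0.16 under R 4.3.3 (limma 3.58.1, legacy fit, not robust, TMM scaling, prior count 0.125, biological coefficient of variation 9.74%, 4 residual degrees of freedom). P-values are two-sided and Benjamini-Hochberg adjusted over all tested genes in each comparison, with a threshold of 0.05. The 7 comparisons share libraries and are not independent. CPM and RPKM use TMM library sizes, and RPKM also uses the gene length deposited with the counts. For Cdh6, Cdh11 and Cdh13 that length is well under that of the longest GENCODE transcript. Ratios of counts carry exact 95% intervals, which cover counting error only. A count of 0 allows up to 3 counts, or 0.0486 to 0.0818 CPM in a library.

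The 7 cadherins and the lists beside them were chosen with earlier results of these data known. All 7 are described. Of each list, up to 4 called genes with the largest change between the pairs of lines are named, with 10 genes kept for their role, the nearest tested gene on each side of a cadherin, and the 3 genes nearest to each tested cadherin in their centred log2 CPM profile (prior count 2). Cdh17, Cdh24, Vcl, Tcf3, Tcf4, Pecam1, Kcng4 and Crispld2, and the genes named in the comparison of 4T1.2 with 4T1, were singled out after their values were seen. Dchs2 was not analysed here. The fit was tested on simulated data. Alternatives were DESeq2 1.42.0, limma-voom, other scaling, filters, prior count and gene lengths, a replicate block, and leaving out each library. Python 3.11.15, scipy 1.17.1 and matplotlib 3.10.9 were used for the levels, intervals and plots.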

Additional observations from a re-analysis of the deposited data

How the results depend on the processing

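The calls of Cdh1, Cdh2 and Cdh13 between 4T1/4T1.2 and 66cl4/67NR, and of Cdh1 between 4T1.2 and 4T1, kept their direction and passed the threshold under every alternative run. Asking for 10 or more counts in each of the libraries left no cadherin to test. DESeq2's size factors moved the median of all genes by at most 0.0086 on the log2 scale.

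Leaving out 1 library at a time, with a lone library assumed to vary like the other lines, gave 0 to 1 cadherins called in 66cl4 against 67NR. Genes called ran from 1372 to 3110 in 4T1.2 against 4T1 (2686 with all libraries, 1727 in a fit of those 4 libraries alone) and from 4143 to 6938 in 66cl4 against 67NR (6216 with all). Cdh1 in 66cl4 against 67NR ran from -0.83 to 0.91. Cdh11 ran from -1.58 to 0.80 in 4T1.2 against 66cl4, changing sign at 0.17 and 0.80, and from -0.44 to 1.49 in 4T1 against 66cl4, changing sign at -0.35 and -0.44. None of these were called, and their counts were at most 14 per library.

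With the length of the longest transcript, the share of Cdh1 in 4T1 was 99.7% and that of Cdh2 was 78.6% in 66cl4 and 82.7% in 67NR, and with coding length the share of Cdh2 was 75.4% and 79.9%. Over all 23 Cdh genes, an alternative chosen after seeing the data, the share of Cdh1 was 16.3% in 4T1.2 and 46.9% in 4T1, and that of Cdh2 was 21.5% in 66cl4 and 17.1% in 67NR.

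Replicate numbers were not used to pair the libraries. Differences between replicate 1 and replicate 2 correlated at -0.12 to 0.27 over 6 pairs of lines, with 0.27 for 4T1.2 with 4T1. With a replicate block, 2886 genes were called in 4T1.2 against 4T1, beside 2686 without it. The number of cadherins called was the same with the block in all 7 comparisons.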
